A study of Mus musculus with 12 samples.

Results

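The genes described here encode the killing machinery of cytotoxic T cells, namely the granzymes Gzma, Gzmb, Gzmk, Gzmm and Gzmc, perforin (Prf1), Fas ligand (Fasl) and the granule membrane protein Nkg7. These 8 genes were picked by their names from the 32285 genes of the count files, by a rule that uses no measured value, although earlier results of these data were known when the list was made. Their unique molecular identifiers (UMIs, each standing for 1 captured mRNA molecule) were read in scRNA-seq libraries of CD8 T cells from NOD/ShiLtJ mice, an inbred strain that develops autoimmune diabetes on its own. The cells bound (IGRP+) or did not bind (IGRP-) a Kd tetramer loaded with NRP-V7, a peptide that mimics the islet autoantigen IGRP. Islet IGRP-, islet IGRP+ and spleen IGRP+ cells were each sequenced in 2 rounds, and every round drew on a new pool of 10 prediabetic females aged 10 to 15 wk, so that no cell can be assigned to a mouse and n is 2 libraries per group. Islets were freed with collagenase P, spleen cells were enriched for CD8 T cells before the sort, and all sorted cells were CD45.1+ CD8+ and negative for CD4, B220 and CD11b. The study's text adds that the spleen cells were sorted as CD44+, a gate that its methods and the labels do not list and that is not stated for the islet cells. The labels name no treatment before the mice were euthanized. Matched scTCR-seq libraries gave the clone of a cell, defined here as 1 productive α and 1 productive β chain with the same CDR3 nucleotides.

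A cytotoxic T cell kills in 2 main ways. In granule exocytosis, perforin opens pores and granzymes, which are serine proteases, enter the target cell and cleave proteins there. In the death receptor route, Fas ligand on the T cell engages Fas on the target and starts a caspase cascade. In NOD mice, CD8 T cells that recognise β-cell antigens such as IGRP enter the islets and take part in the loss of β cells.

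Of 26818 barcodes, 24117 cells had under 5% mitochondrial UMIs and at least 200 genes, with an upper limit of 3500 genes for islet cells and of 2000 for spleen cells. The islet IGRP- libraries held 6429 cells in Round 1 and 8932 in Round 2, the islet IGRP+ libraries held 1204 and 1598, and the spleen IGRP+ libraries held 3524 and 2430. The summed UMIs per library lay between 5880696 and 40469961, and the median cell held 3793 to 4216.5 UMIs in islets and 2590 to 2764.5 in spleen. Because of this gap in depth, shares of cells are given after each cell was thinned to 1000 UMIs, which left out 26 to 100 shallower cells per library. At least 1 of 5 CD8 T-cell markers was detected in 99.2% to 99.8% of cells of each library, and the 3 NK-cell markers summed to at most 2.90 CPM (UMIs of a gene per 1000000 UMIs of the library). The 8 markers of exocrine pancreas summed to between 27.5 and 327 CPM in the 4 islet libraries and to 0 in both spleen libraries. Any 2 libraries shared between 2 and 64 barcodes (at most 1.03% of the smaller library), and no shared barcode carried the same clone in both.

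The 8 genes lie on 5 chromosomes. In GRCm38, Gzma (chr13:113093825-113100981) and Gzmk (chr13:113171608-113225908) lie on chromosome 13, both on the minus strand. Gzmb (chr14:56258838-56262260) and Gzmc (chr14:56231441-56234656) share a cluster on chromosome 14, also on the minus strand. Gzmm (chr10:79689020-79695261) and Prf1 (chr10:61297833-61304680) lie on the plus strand of chromosome 10, Nkg7 (chr7:43437073-43438249) on the plus strand of chromosome 7 and Fasl (chr1:161780689-161788495) on the minus strand of chromosome 1. The span of Gzmk overlaps Esm1 on the other strand. No 91-base window of the longest coding transcript of any of the 8 genes occurred in a transcript of another gene.

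The promoters of Gzma, Gzmb and Gzmk are shown because these granzymes were ordered differently over the 3 groups (values follow). Each runs from 250 bases before to 50 bases after the RefSeq transcript start (GRCm38.p6, C57BL/6J reference, whereas the cells came from NOD mice), is written 5′ to 3′ on the minus strand of the chromosome, and covers chr13:113100932-113101231, chr14:56262285-56262584 and chr13:113180916-113181215 in the same order. Capitals mark matches, on either strand, to TGTGGT (RUNX factors), TGANTCA (AP-1), GGTGTGA (a T-box half-site) or TGACGT (a half-site for CREB-family factors).
Gzma: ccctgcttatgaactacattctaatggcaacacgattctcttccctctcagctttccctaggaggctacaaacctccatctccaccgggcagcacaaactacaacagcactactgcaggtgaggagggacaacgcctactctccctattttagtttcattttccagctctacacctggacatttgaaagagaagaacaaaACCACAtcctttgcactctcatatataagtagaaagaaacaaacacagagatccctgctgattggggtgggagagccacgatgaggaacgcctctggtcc
Gzmb: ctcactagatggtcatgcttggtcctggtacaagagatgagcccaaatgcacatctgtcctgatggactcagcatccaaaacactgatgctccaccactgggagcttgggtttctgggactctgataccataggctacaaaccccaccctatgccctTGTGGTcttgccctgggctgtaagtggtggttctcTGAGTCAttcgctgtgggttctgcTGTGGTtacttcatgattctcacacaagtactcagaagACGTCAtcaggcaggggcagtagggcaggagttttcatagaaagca
Gzmk: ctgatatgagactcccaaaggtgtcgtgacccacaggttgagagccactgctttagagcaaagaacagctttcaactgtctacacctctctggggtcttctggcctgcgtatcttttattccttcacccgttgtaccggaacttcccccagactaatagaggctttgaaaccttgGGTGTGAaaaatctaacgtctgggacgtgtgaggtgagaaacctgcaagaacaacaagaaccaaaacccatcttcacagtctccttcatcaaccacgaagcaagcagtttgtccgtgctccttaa
The Gzma window held 1 RUNX match, 50 bases before the start. The Gzmb window held 2 RUNX matches (93 and 34 bases before the start), 1 AP-1 match (58 bases before it) and 1 CREB half-site just after it, and the Gzmk window held 1 T-box match, 75 bases before the start. No matches overlapped in these windows. All distances are from the RefSeq starts, which for Gzmb and Gzmk are not the ends of the gene spans given above. The whole Gzmb window lies upstream of its span, which ends at position 56262260. The Gzmk window lies inside its span. Of 32851 promoter windows of this length, 16.8% held a RUNX match, 7.81% an AP-1 match, 3.98% a T-box match and 7.51% a CREB half-site. These are matches of letters and were not measured as binding.

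The main contrasts were as follows. Gzmb was higher in islet IGRP+ than in spleen IGRP+ cells, whereas Gzma, Gzmm and Prf1 were lower there, and Gzma and Gzmm were also lower in islet IGRP+ than in islet IGRP- cells. These last 2 calls were lost in edgeR when any of the 4 islet libraries was left out or when only these 4 were fitted. They were also lost with expanded clones alone. Gzmk, Fasl and Nkg7 did not pass the edgeR test in either contrast without a term for the round, nor did Gzmb against islet IGRP- cells. With the round as a block, these 4 were called higher in islet IGRP+ than in islet IGRP- cells. That fit called 3442 of 11277 genes. Among clones, cells of expanded clones (at least 2 cells in a library) had more Gzmb, Gzmk, Fasl and Nkg7 than cells of singlet clones in both islet IGRP- and spleen IGRP+ libraries, while Gzma was higher in expanded clones of the spleen and not in those of the islets.

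**Figure D1:**
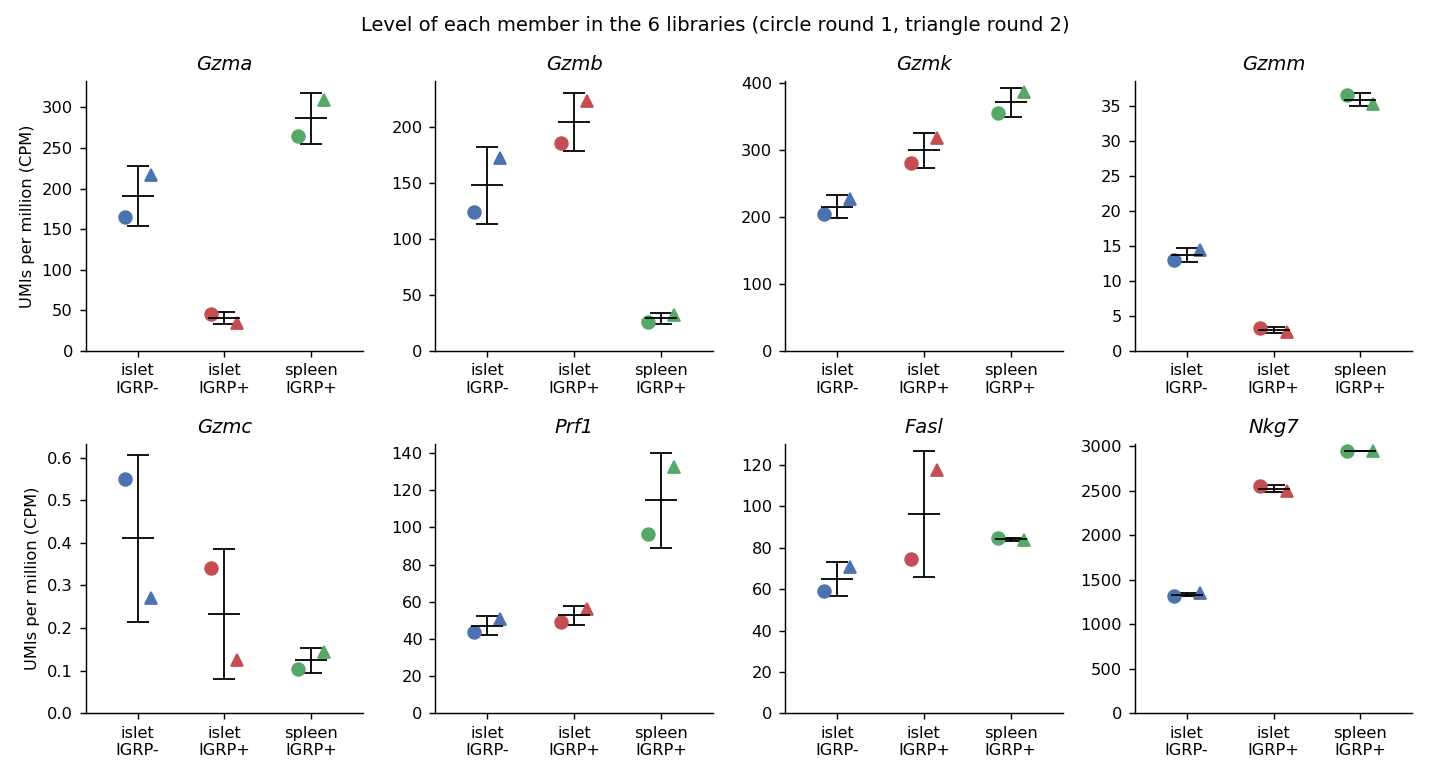
Level of each gene as CPM (y axis, starting at 0 and scaled per gene) in the 2 libraries of each group (circle, Round 1; triangle, Round 2), with the mean (wide bar) and SD (error bar). Gzmb is lowest in the spleen, between 25.6 and 32.0 CPM, and Gzma is lowest in islet IGRP+ libraries, between 34.6 and 45.1 CPM.

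Perforin forms the pores through which granzymes pass. Prf1 was at 43.7 and 50.9 CPM in islet IGRP- libraries (Rounds 1 and 2), at 49.0 and 56.4 CPM in islet IGRP+ libraries and at 96.4 and 133 CPM in spleen IGRP+ libraries. Both spleen libraries stood above the 4 islet libraries, whose 2 groups overlapped. In 1000 UMIs per cell, a Prf1 UMI was found in 4.90% ± 0.57 of islet IGRP- cells, in 5.65% ± 0.53 of islet IGRP+ cells and in 11.2% ± 2.5 of spleen IGRP+ cells (mean ± SD, n = 2 libraries). A cell with Prf1 held between 1.04 and 1.13 Prf1 UMIs on average in every library, close to the minimum of 1.

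Nkg7, a protein of granule membranes that promotes degranulation, was at 1321 and 1349 CPM in islet IGRP- libraries, at 2558 and 2496 CPM in islet IGRP+ libraries and at 2947 and 2948 CPM in spleen IGRP+ libraries. The groups did not overlap, and the levels of both rounds were close in each. Nkg7 was detected in 53.0% ± 0.115 of islet IGRP- cells, 81.2% ± 1.25 of islet IGRP+ cells and 88.1% ± 1.8 of spleen IGRP+ cells (mean ± SD, n = 2).

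Granzyme B, a protease that activates caspases in the target cell, was ordered with islet IGRP+ cells first and spleen cells last. Gzmb was at 124 and 172 CPM in islet IGRP- libraries, at 186 and 223 CPM in islet IGRP+ libraries and at 25.6 and 32.0 CPM in spleen IGRP+ libraries. Both spleen libraries stood below every islet library, and the 2 islet groups did not overlap although their nearest libraries, at 172 and 186 CPM, were closer to each other than the rounds within a group. A Gzmb UMI was found in 6.52% ± 0.88 of islet IGRP- cells, in 10.4% ± 0.21 of islet IGRP+ cells and in 2.61% ± 0.42 of spleen cells (mean ± SD, n = 2). Cells with Gzmb held 2.15 ± 0.32, 1.92 ± 0.11 and 1.19 ± 0.04 UMIs of it in the same order, so that in the spleen both the share of cells and the UMIs per detected cell were low.

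Granzyme A, a tryptase that cleaves other substrates than granzyme B, had a different order. Gzma was at 165 and 217 CPM in islet IGRP- libraries, at 45.1 and 34.6 CPM in islet IGRP+ libraries and at 265 and 309 CPM in spleen IGRP+ libraries, and no 2 groups overlapped. The share of cells with a Gzma UMI was 4.57% ± 0.79, 1.85% ± 0.26 and 8.79% ± 0.63 (mean ± SD, n = 2). Cells with Gzma held 3.92 ± 0.017 and 3.99 ± 0.34 UMIs of it in islet IGRP- and spleen cells and 2.29 ± 0.24 in islet IGRP+ cells. Gzma mRNA was concentrated in few cells, since the 1% of cells with most Gzma held between 35.0% and 67.9% of all Gzma UMIs of a library. For Gzmk, the same 1% held between 6.55% and 13.3%.

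Granzyme K, another tryptase and the granzyme found in most cells here, was at 204 and 227 CPM in islet IGRP- libraries, at 281 and 318 CPM in islet IGRP+ libraries and at 356 and 387 CPM in spleen IGRP+ libraries. No groups overlapped. Gzmk was detected in 14.3% ± 0.84, 21.3% ± 2.2 and 30.3% ± 1.8 of cells in the same order (mean ± SD, n = 2). Cells with Gzmk held 1.26 to 1.39 UMIs of it, as means over the libraries of a group.

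Granzyme M, which prefers to cleave after methionine or leucine, was low throughout. Gzmm was at 12.9 and 14.4 CPM in islet IGRP- libraries, at 3.23 and 2.63 CPM in islet IGRP+ libraries and at 36.5 and 35.2 CPM in spleen libraries, and no groups overlapped. After thinning, it was found in 1.09% ± 0.11, 0.331% ± 0.013 and 2.82% ± 0.23 of cells (mean ± SD, n = 2). In islet IGRP+ cells these shares rest on 4 cells in Round 1 and 5 in Round 2.

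Gzmc was at the edge of detection, with 16 and 11 UMIs in islet IGRP- libraries, 2 and 1 UMIs in islet IGRP+ libraries and 1 UMI in each spleen library. It did not pass the filter on low counts and was not tested. The related genes Gzmd, Gzme, Gzmf, Gzmg and Gzmn were nearly silent, since Gzme and Gzmf had at most 0.0247 CPM (in islet IGRP- Round 2) and the others had 0 UMIs in all 6 libraries.

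Fas ligand, the membrane protein that engages Fas, was at 58.9 and 70.7 CPM in islet IGRP- libraries, at 74.7 and 118 CPM in islet IGRP+ libraries and at 84.6 and 83.7 CPM in spleen libraries. The spread between the 2 islet IGRP+ libraries was wider than the gap between groups, and the spleen libraries lay between them. A Fasl UMI was found in 6.11% ± 1.1, 8.77% ± 2.8 and 8.51% ± 0.59 of cells (mean ± SD, n = 2).

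Free RNA can place a UMI in a cell that does not express the gene. Nearly all cells were T cells, and no cell type that should lack these genes was at hand. Cells without a UMI of Ccl5, a chemokine of effector and memory T cells, are therefore given for comparison (a choice made after the data were seen), at the same 1000 UMIs per cell. There were 2664 and 3842 such cells in islet IGRP- libraries, 109 and 151 in islet IGRP+ libraries and 413 and 199 in spleen libraries. Their Nkg7 shares were 26.2% and 30% in islet IGRP- libraries, 59.6% and 58.3% in islet IGRP+ libraries and 42.1% and 50.8% in spleen libraries, so they were not free of cytotoxic mRNA. Gzmk was found in 1.20% and 1.64% of them in islet IGRP- libraries, in 10.1% and 9.93% in islet IGRP+ libraries and in 0.242% and 0% in spleen libraries. In cells with Ccl5 the Gzmk shares were 22.7% and 25%, 20.7% and 24.2%, and 32.9% and 34.5% in the same order. Gzma in cells without Ccl5 ranged from 0% to 1.07% over the 6 libraries and Gzmb from 0% to 1.85%. Prf1 ranged from 2.42% to 4.59% in them, against 5.23% to 13.8% of cells with Ccl5. The level of free RNA was not measured here.

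The first contrast asked how tetramer binding within the islets went with the cytotoxic genes. UMIs were summed per library and tested with edgeR's quasi-likelihood test over the 6 libraries with no term for the round, adjusted over 11277 genes, of which 1.19% were called at an adjusted p under 0.05 (0.151% higher and 1.04% lower in islet IGRP+). Of the 7 genes tested, 2 were called, both lower. Gzma was lower in islet IGRP+ cells by a log2 fold change of -2.24 ± 0.25 (SE, edgeR adjusted p = 0.0259) and Gzmm by -2.23 ± 0.25 (0.0259). Gzmm had 19 and 21 UMIs in the islet IGRP+ libraries. Neither call held in edgeR when any 1 of the 4 libraries was left out (adjusted p between 0.0607 and 0.135) or when only these 4 libraries were fitted (0.0829 and 0.0823), although both differences stayed at -1.95 or below.

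The other 5 genes had higher means in islet IGRP+ cells and did not pass. The log2 differences were 0.47 ± 0.17 for Gzmb (edgeR adjusted p = 0.241), 0.47 ± 0.16 for Gzmk (0.218), 0.55 ± 0.20 for Fasl (0.237), 0.92 ± 0.25 for Nkg7 (0.160) and 0.15 ± 0.14 for Prf1 (0.612). Libraries of 1 round came from 1 pool of mice and deviated together, and with the round as a block Gzmb (edgeR adjusted p = 0.00908), Gzmk (0.00809), Fasl (0.0111) and Nkg7 (0.000266) were called higher, with log2 differences of 0.47, 0.47, 0.55 and 0.92. That fit called 3442 genes, against 134 without the block. DESeq2 without the block called 574 of 11277 genes. Among the 7 it called 2 higher, Gzmk and Nkg7, and 2 lower. The 2 groups also differed in clone sizes, since 1389 of 2992 and 2959 of 5483 islet IGRP- cells with a clone were the lone cell of that clone, against 12 of 673 and 14 of 1191 islet IGRP+ cells. With expanded clones alone, a fit added after the data were seen, 2 genes and 0 of the 7 were called by edgeR, and 2 of the 7 had an unadjusted p under 0.05. The log2 differences were then -1.89 ± 0.33 for Gzma (edgeR adjusted p = 0.361), -1.17 ± 0.33 for Gzmm (0.849), 0.20 ± 0.22 for Gzmb (0.869) and 0.44 ± 0.26 for Nkg7 (0.849). They were 0.06 ± 0.21 for Gzmk (edgeR adjusted p = 0.963), 0.09 ± 0.23 for Fasl (0.945) and 0.19 ± 0.16 for Prf1 (0.858). Clones of at least 20 cells held 479 of 661 and 1005 of 1177 expanded islet IGRP+ cells. In islet IGRP- libraries they held 650 of 1603 and 966 of 2524. In these clones, Gzma was at 61.4 and 30.4 CPM in islet IGRP+ and at 34.4 and 49.9 CPM in islet IGRP- libraries. Gzmm was there at 3.904 and 2.42 CPM against 3.005 and 2.04 CPM, from 11 to 13 UMIs per library. In clones of 5 to 19 cells, Gzma was lower in islet IGRP+ libraries, at 45.5 and 53.6 against 266 and 148 CPM. Gzma was also lower in clones of 2 to 4 cells (12.4 and 48.4 against 217 and 516 CPM). Gzmm overlapped in clones of 5 to 19 cells. In clones of 2 to 4 cells Gzmm was lower in islet IGRP+, from 0 and 1 UMIs. The part of clone size in the first contrast was not tested further.

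The second contrast compared IGRP+ cells of islets and spleen of the same pools, and it shares the islet IGRP+ libraries with the first. Tissue, cell isolation and the CD44 gate stated for the spleen cannot be told apart in it. By the study's methods, islets were digested and their cells then incubated in warm medium, while spleens were processed mechanically. Here 26.6% of 11277 genes were called (13.7% higher and 12.9% lower in islets), and 4 of the 7 tested genes were called, 1 higher and 3 lower. Gzmb was higher in islets by 2.93 ± 0.18 on the log2 scale, a 7.60-fold difference (SE, edgeR adjusted p = 0.0014). Gzma was lower by -2.73 ± 0.26 (0.0029), Gzmm by -3.54 ± 0.26 (0.00155) and Prf1 by -1.01 ± 0.15 (0.00738). The log2 differences were -0.22 ± 0.16 for Gzmk (0.35), 0.26 ± 0.20 for Fasl (0.368) and -0.13 ± 0.25 for Nkg7 (0.747), and none of these passed.

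The same 4 genes were called when only cells of clones found in both tissues of a round were kept, with log2 differences of 2.75 ± 0.20 for Gzmb, -2.45 ± 0.36 for Gzma, -3.22 ± 0.31 for Gzmm and -1.19 ± 0.15 for Prf1. Prf1 lost its call without the Round 2 spleen library (-0.91, edgeR adjusted p = 0.0536). The islet libraries carried exocrine transcripts and the spleen libraries did not. Without cells that had UMIs of at least 2 markers of other cell types, the log2 differences were 2.94, -2.72, -3.51 and -1.02 in the order above, and all 4 were called.

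**Figure D2:**
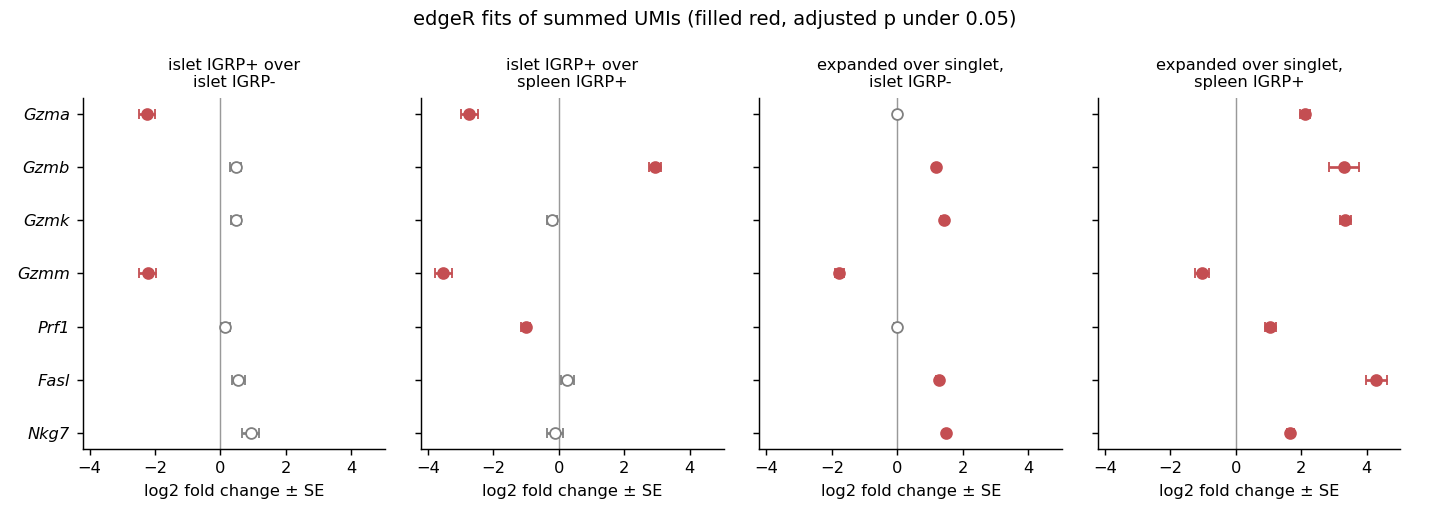
Log2 fold change ± SE (x axis) of the 7 tested genes in 4 edgeR fits of UMIs summed per library or per clone size, with red filled points at an adjusted p under 0.05. Gzmb and Gzma differ in opposite directions between islet and spleen IGRP+ cells (2.93 and -2.73).

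Clones seen with at least 20 cells in both tissues of a round allowed a comparison within the same clone, given as counts with no test because clones of a round share libraries and mice. There were 6 such clones in Round 1 and 11 in Round 2. Gzmb was higher in the islets in 5 of 6 and 10 of 11 clones, with medians over clones of 184 CPM in islets against 33.9 CPM in spleen in Round 1 and of 203 against 37.9 CPM in Round 2. Gzma was higher in the spleen in 4 of 6 and 9 of 11 clones and Prf1 in 6 of 6 and 10 of 11. Gzmm was higher there in 6 of 6 and 11 of 11, and Gzmk in 6 of 6 and 10 of 11. Nkg7, which is not drawn in the figure, was also higher in the spleen in 6 of 6 and 10 of 11. Its medians were 2810 CPM in islets against 3938 CPM in spleen in Round 1 and 2657 against 3405 CPM in Round 2. For Fasl the rounds went opposite ways, since it was higher in the islets in 1 of 6 clones of Round 1 and in 9 of 11 clones of Round 2. One Round 2 clone, with 62 islet cells, had the highest islet level of Gzmb of these clones, 1033 CPM against 60.9 CPM in its spleen cells, and its Gzma was at 105 CPM in islets and 874 CPM in spleen.

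**Figure D3:**
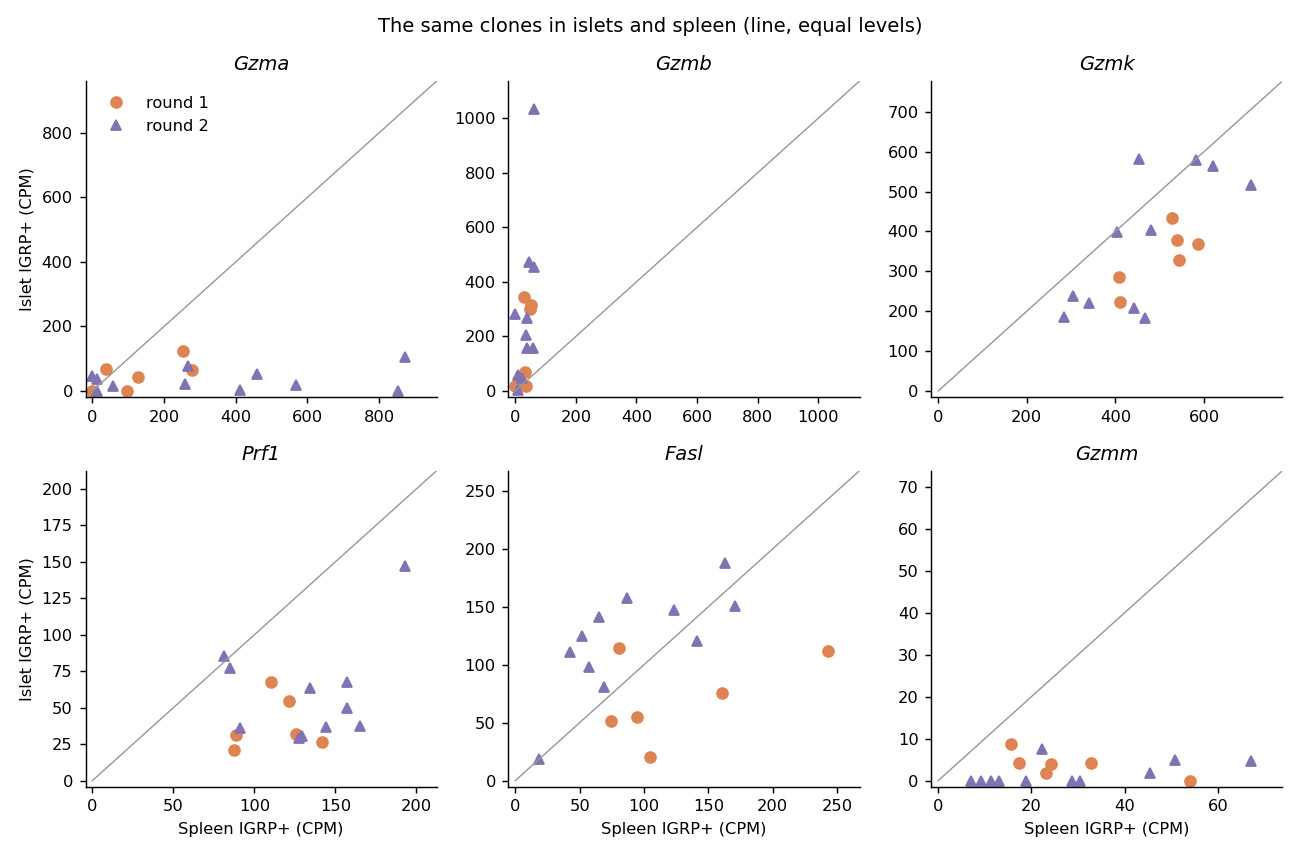
Level (CPM) of 6 genes in islet (y axis) and spleen (x axis) IGRP+ cells of the same clones with at least 20 cells in each tissue, 6 clones of Round 1 (circles) and 11 of Round 2 (triangles), with the line of equal levels. Gzmb lies above the line in 5 of 6 and 10 of 11 clones and Gzmm below it in 6 of 6 and 11 of 11.

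Other genes of the killing routes were counted from 3 lists, of granule matrix and membrane, granule exocytosis and the death receptor pathway. In the first contrast edgeR called 0 of their 31 tested genes, while 7 had an unadjusted p under 0.05, DESeq2 called 3 higher, and edgeR with the round as a block called 13 higher and 1 lower, in a fit that called 3442 of all 11277 genes. The list medians were 0.04, 0.15 and 0.40 in the order above, against -0.01 over all genes. Between islet and spleen IGRP+ cells, 3 of 9 granule matrix and membrane genes were called, all higher in islets, with a list median of 0.15 against -0.03 over all genes. These were Srgn, the proteoglycan core of granules (log2 difference 1.26, edgeR adjusted p = 0.0138), Lamp2, a lysosomal membrane protein (1.22, 0.0208), and Calr, a chaperone found in granules (0.72, 0.0291). Of 12 exocytosis genes, 1 was called, Stx11, a syntaxin needed for granule fusion, which was at 135 and 182 CPM in islet IGRP+ libraries and at 29.2 and 29.7 CPM in spleen libraries (2.51, 0.00147). Of 10 death receptor genes, 2 were called higher in islets, among them the receptor gene Fas (1.13, 0.0194). The list medians were 0.02 for exocytosis and -0.19 for the death receptor genes.

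The cells were then split by clone size. Clones were assigned to 2992 and 5483 islet IGRP- cells, 673 and 1191 islet IGRP+ cells and 1660 and 1668 spleen IGRP+ cells. Islet IGRP+ libraries had only 12 and 14 cells of singlet clones, so no contrast was made there. In islet IGRP- libraries 1389 and 2959 cells were singlets, and in spleen libraries 252 and 162. Singlet and expanded cells of a library were summed and fitted with the library as a block, which leaves 1 residual degree of freedom per gene, so the spread was borrowed across genes.

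In islet IGRP- libraries, 47% of 11182 genes were called (24.7% higher and 22.4% lower in expanded clones), and 5 of 7 tested cytotoxic genes were called, so a call alone sets no gene apart here. Gzmk was at 110 and 114 CPM in singlets and at 294 and 373 CPM in expanded clones, a log2 difference of 1.42 ± 0.07 (SE, edgeR adjusted p = 1.76e-10). Nkg7 was at 665 and 653 CPM in singlets and at 1995 and 2139 CPM in expanded clones (1.49 ± 0.05, 4.11e-13). Fasl was at 34.0 and 36.7 CPM against 81.4 and 108 CPM (1.28 ± 0.09, 4.31e-09), and Gzmb at 63.5 and 99.1 CPM against 162 and 250 CPM (1.19 ± 0.07, 4.18e-10). Both expanded sums exceeded both singlet sums for these 4 genes. Without the block the edgeR adjusted p of Gzmb was 0.0816 and that of the other 3 lay between 0.0288 and 0.0336.

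Gzmm went the other way in islet IGRP- libraries, from 21.5 and 22.9 CPM in singlets to 5.87 and 8.30 CPM in expanded clones (-1.77 ± 0.14, edgeR adjusted p = 4.08e-08). Prf1 was at 37.7 and 48.8 CPM in singlets and at 41.8 and 53.9 CPM in expanded clones (-0.01 ± 0.08, 0.914), and both sizes overlapped. Gzma was at 134 and 194 CPM in singlets and at 156 and 206 CPM in expanded clones (-0.01 ± 0.06, 0.898). CPM values are not scaled by TMM and the fitted differences are. When expanded clones had to hold at least 5 cells, Gzma was lower in them by -0.73 ± 0.18 (0.00562).

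By size class, Gzma CPM in islet IGRP- libraries was highest in clones of 5 to 19 cells in Round 1 and of 2 to 4 cells in Round 2. It was at 134 and 194 CPM in singlets, at 217 and 516 CPM in clones of 2 to 4 cells, at 266 and 148 CPM in clones of 5 to 19 cells and at 34.4 and 49.9 CPM in clones of 20 cells or more. The largest clones were the lowest class in both rounds. In Round 2, clones of 5 to 19 cells also lay below singlets. In Round 1, 1 clone of 9 cells, or 0.301% of the cells with a clone, held 12% of the Gzma UMIs and 14.5% of the Gzmb UMIs of such cells. Shares of thinned cells gave the same low end, with Gzma in 1.85% and 3% of cells of the largest clones against 4.40% and 4.73% of singlets.

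In spleen IGRP+ libraries, 18.3% of 9290 genes were called (9.14% higher and 9.2% lower in expanded clones) and all 7 tested cytotoxic genes were called, 6 higher and 1 lower. Gzmk was at 30.1 and 50.0 CPM in singlets and at 486 and 453 CPM in expanded clones (3.35 ± 0.16, edgeR adjusted p = 1.13e-94). Gzma was at 37.1 and 74.3 CPM against 254 and 300 CPM (2.12 ± 0.15, 3.02e-43), Prf1 at 46.2 and 56.1 CPM against 114 and 143 CPM (1.06 ± 0.16, 1.78e-09), and Nkg7 at 869 and 975 CPM against 3703 and 3325 CPM (1.67 ± 0.11, 2.75e-45). Expanded sums exceeded singlet sums in both rounds for each of these genes. Without the block, 312 genes and these 4, Gzmb and Fasl stayed called in edgeR, with adjusted p between 0.00112 and 0.0369.

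Gzmb and Fasl were almost undetected in singlet spleen cells, so their folds are imprecise. Singlets held 5 and 0 Gzmb UMIs and 5 and 2 Fasl UMIs, against 139 and 159 Gzmb UMIs and 411 and 397 Fasl UMIs in expanded clones. Over both libraries the ratio of expanded to singlet CPM was 12.1 for Gzmb (95% exact counting interval 5.13 to 37.6) and 23.5 for Fasl (11.3 to 58.5). The fitted differences were 3.32 ± 0.45 (edgeR adjusted p = 1.02e-11) and 4.30 ± 0.32 (1.89e-38) and depend on the prior count. Gzmm was at 61.2 and 47.0 CPM in singlets and at 30.9 and 34.0 CPM in expanded clones (-1.03 ± 0.21, 1.43e-05), a call lost without the block (0.101), with DESeq2 (0.17) and without Round 1 (-0.62, 0.257).

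**Figure D4:**
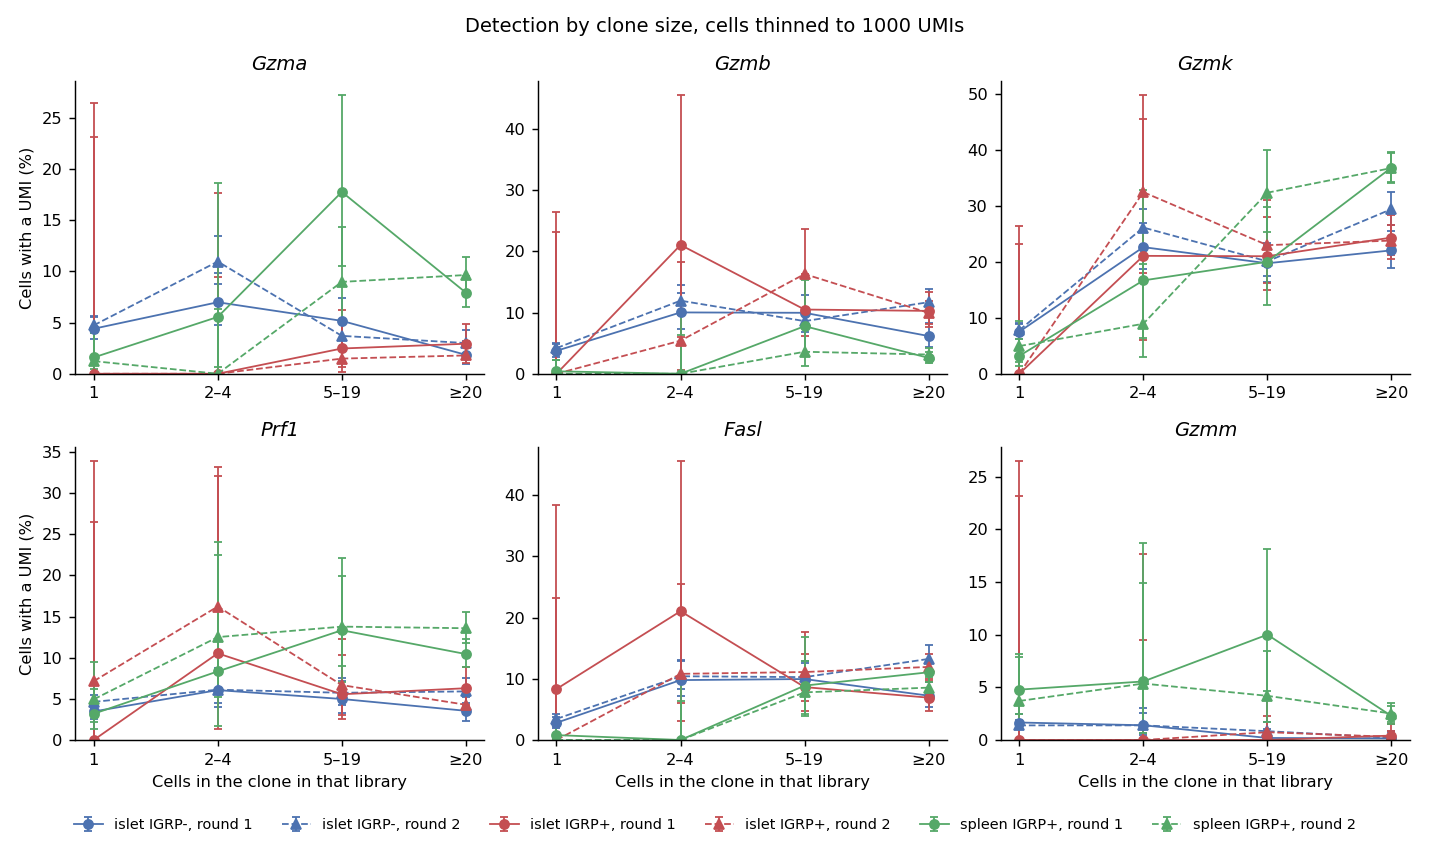
Share of cells with a UMI (y axis, %, cells thinned to 1000 UMIs, bars 95% exact binomial intervals for counting error) by the number of cells of the clone in that library (x axis) for 6 genes in the 6 libraries. Gzmk is lowest in singlets of islet IGRP- and spleen libraries (3.19% to 7.78%) and reaches 36.8% and 36.7% in the largest spleen clones, while islet IGRP+ classes of 1 cell rest on 12 and 14 cells.

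The log2 step from singlet to expanded clones differed between spleen IGRP+ and islet IGRP- cells for 6 of the 7 genes, where 9.15% of 10841 genes were called for a difference of the 2 steps (4.44% with a higher and 4.71% with a lower value in the spleen). These groups differ in tissue, in cell isolation, in tetramer binding and in the stated CD44 gate, which cannot be told apart. The difference of log2 steps, spleen IGRP+ minus islet IGRP-, was 2.14 ± 0.17 for Gzma (SE, edgeR adjusted p = 3.34e-11), 2.15 ± 0.51 for Gzmb (0.00471), 1.95 ± 0.20 for Gzmk (7.36e-09), 1.08 ± 0.17 for Prf1 (2.61e-05), 3.02 ± 0.39 for Fasl (8.09e-07) and 0.74 ± 0.24 for Gzmm (0.0473). For Gzmm this means a smaller drop in the spleen. For Nkg7 it was 0.20 ± 0.10 (0.244). Without the Round 2 spleen library the edgeR adjusted p was 0.141 for Gzmb (difference 1.39) and 0.368 for Gzmm (0.50).

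Large clones differed widely among themselves. Over the 16 islet IGRP+ clones of at least 20 cells in Round 2, Gzmb ranged from 0 to 1033 CPM with a median of 157, and 1 clone of 62 cells, or 5.21% of the cells with a clone, held 29.0% of the Gzmb UMIs. Over the 6 such clones of Round 1, Gzmb ranged from 16.6 to 346 CPM. In the spleen, Gzma ranged from 0 to 847 CPM over 16 clones in Round 1 and from 0 to 874 CPM over 17 clones in Round 2. Gzmk and Prf1 had no clone at 0, with Gzmk between 192 and 679 CPM in Round 1 and between 284 and 706 CPM in Round 2 of the spleen. These ranges rest on clones of 20 to 323 cells and include counting error.

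Among the other pathway genes, 16 of 31 tested were called higher and 2 lower in expanded clones of islet IGRP- libraries, and 11 higher and 2 lower in those of the spleen. Over all genes the shares called were 47% (24.7% higher) and 18.3% (9.14% higher) in the same order. Without the block these counts were 4 higher and 0 lower in each. The exocytosis genes with the smallest adjusted p in islet IGRP- libraries were Stx11 (1.83, edgeR adjusted p = 9.1e-12), Rab27a, a GTPase of granule docking (1.40, 4.94e-09), and Coro1a, an actin regulator (0.42, 7.23e-07). In the spleen these were Vamp8, a vesicle SNARE (1.03, 1.63e-14), Stx11 (2.77, 1.58e-09) and Sytl2, an effector of Rab27 proteins (1.92, 1.08e-05). Ctsl, which encodes a lysosomal protease, was the granule list gene that was lower, by -1.86 in islets (3.72e-09) and -1.99 in spleen (0.0328). Fas was higher in expanded clones of both (0.88, 9.86e-08, and 1.32, 3.88e-09).

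Single cells showed which cytotoxic genes were found together. In cells thinned to 1000 UMIs, Gzma and Gzmb were found in the same cell 3.96 to 6.67 times as often as their separate shares would give, in 6 of 6 libraries and with at least 10 such cells in each. In islet IGRP- libraries 39.4% and 39.7% of cells with Gzma also had Gzmb, against 4.51% and 5.38% of cells without Gzma. In the spleen, 11.5% and 17.4% of cells with Gzma had Gzmb, against 1.49% and 1.44% of the others, so the higher share of Gzmb beside Gzma was seen also where Gzmb was rare. The pairs Gzma and Fasl (2.14 to 4.06), Gzmb and Fasl (1.68 to 3.36) and Gzmb and Gzmk (1.54 to 2.70) were also above 1 in 6 of 6 libraries. For Gzma and Gzmk the ratio ran from 0.84 (islet IGRP+ Round 2, 5 cells with both) to 3.20 (islet IGRP- Round 1). For Prf1 the ratios were 1.23 to 2.12 with Gzmb, 1.02 to 1.72 with Gzmk and 0.73 to 1.92 with Gzma. These ratios describe cells of mixed states within each library and carry no test.

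Sorting cells by which of Gzma, Gzmb and Gzmk they had gave a different mix in each group. Cells with none of the 3 were 81.2% and 78.7% in islet IGRP- libraries, 72.6% and 69.7% in islet IGRP+ libraries and 65.9% and 63.5% in spleen libraries. Gzmk alone was the largest class with a granzyme everywhere, from 10.5% in islet IGRP- Round 1 to 26.0% in spleen Round 2. Gzmb alone made up 6.28% and 6.11% of islet IGRP+ cells against 0.811% and 0.632% of spleen cells, and Gzmb with Gzmk made up 3.40% and 3.34% against 0.55% and 0.674%. Gzma with Gzmk showed the reverse, at 0.34% and 0.0643% of islet IGRP+ cells and at 3.42% and 4.09% of spleen cells.

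**Figure D5:**
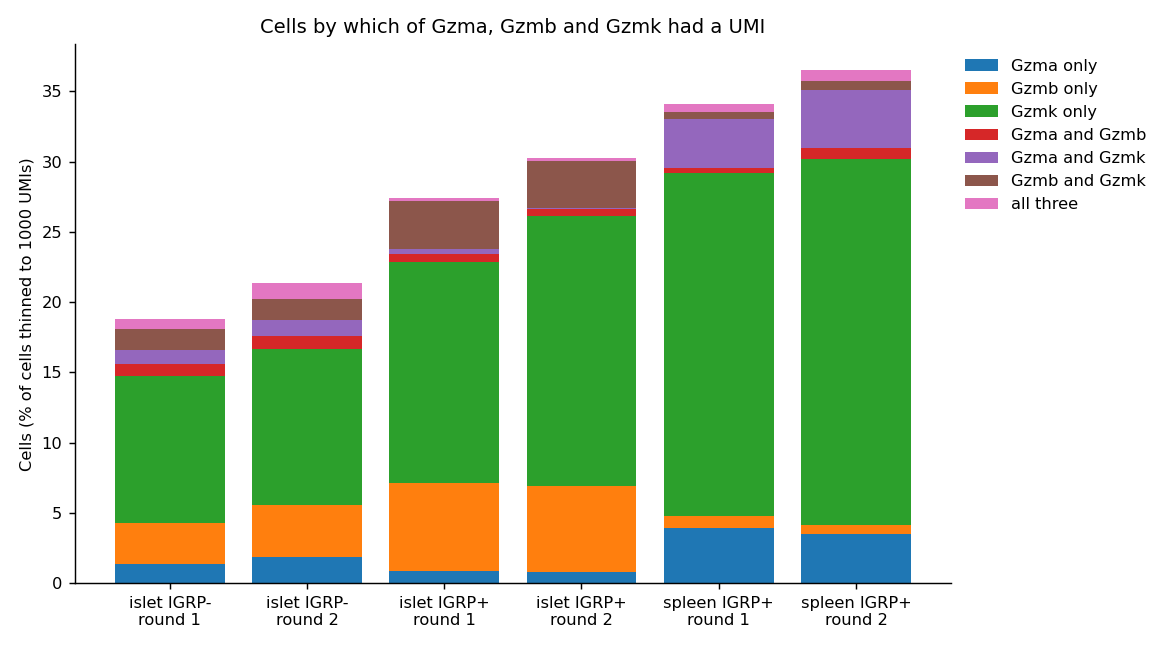
Share of cells (y axis, % of cells thinned to 1000 UMIs) with a UMI of Gzma, Gzmb or Gzmk, stacked by which of the 3 were found, in each library; cells with none are not drawn. Gzmb without the others is 6.28% and 6.11% in islet IGRP+ libraries and under 1% in spleen libraries (0.811% and 0.632%).

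Genes that mark T-cell states were used to place these granzymes. In islet IGRP- libraries, cells with a UMI of Klrg1, a receptor of short-lived effector cells, had Gzma in 47.2% and 54.2% against 3.76% and 4.86% of the other cells, from 36 and 48 Klrg1 cells. None of the 6 and 12 islet IGRP+ cells with Klrg1 had Gzma. In the spleen the Gzma shares were 30.4% and 39.7% against 6.89% and 7.08%, from 214 and 156 cells. Klrg1 did not go with Gzma alone. In the islet IGRP- cells with Klrg1, Gzmb was found in 41.7% and 45.8%, against 5.70% and 6.93% of the others. Gzmk was found in 55.6% and 50% of them, against 13.4% and 14.7%. Cells with Havcr2, which encodes the inhibitory receptor TIM-3, had Gzmb in 27.5% and 28.3% of islet IGRP- and in 28.3% and 27.1% of islet IGRP+ cells, against 5.49% and 6.68% and against 9.57% and 8.84% of the others. Cells with Cxcr6, a chemokine receptor of tissue T cells, had Gzmb in 22.4% and 17.5% of islet IGRP+ cells against 5.90% and 6.63% of the others. Gzmb was low in cells with Tcf7, a transcription factor of progenitor and memory T cells, at 0% and 1.5% of islet IGRP+ cells against 11.3% and 11%. Gzmk was found in 11.2% and 15.8% of islet IGRP+ cells with Tcf7 against 20.3% and 23.5% without it, and in the spleen in 22.8% and 28.3% against 30.6% and 32.8%.

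Across cells, the gene most like Gzma was Gzmb and the reverse, with a mean Pearson r over 6 libraries of 0.27 (0.18 to 0.40) in thinned counts and a rank of 1 among 6000 genes for both. Among genes outside the list, Ccl5 was the closest to Gzmb (mean r 0.19), Gzmk (0.27), Fasl (0.19), Prf1 (0.084) and Nkg7 (0.46), and Lgals1, which encodes galectin-1, was the closest to Gzma (0.15). The next closest were Ccl5 and Tmsb4x for Gzma, S100a6 and Tmsb4x for Gzmb, Actb and Tmsb4x for Gzmk, Klrc1 and Ccl4 for Prf1, Cxcr6 and Rgs1 for Fasl, and S100a6 and Lgals1 for Nkg7. These values share cells, depth and library, most are weak in such sparse counts, and they are given as a description only.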

How the data were processed

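Single CD8 T cells were profiled with 5′ scRNA-seq and scTCR-seq. The authors deposited whole-number UMI counts per gene and cell (Cell Ranger, 5.0.1 per the file headers, mouse genome mm10) and, per TCR contig, read and UMI counts. These were used as deposited. The members and all lists were chosen with earlier results of these data known.

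Cells with under 5% mitochondrial UMIs and 200 to 3500 (islets) or 200 to 2000 genes (spleen) were kept. No doublet caller was run, cells with more than 1 β chain were left out in an alternative, and free RNA was not removed. UMIs were summed per library, or per library and clone size, and tested with edgeR 4.0.16 (limma 3.58.1, R 4.3.3) by the quasi-likelihood test with TMM scaling and Benjamini-Hochberg adjustment at 0.05, after genes with low counts were removed with filterByExpr. The SE is the absolute log2 fold change divided by the square root of F. The group fit had no term for the round, and the clone fit had the library as a block. DESeq2 1.42.0 was an alternative. Tests across genes were run on simulated counts drawn independently for each sum, with no shared round effect. That check cannot tell how the fits behave when libraries of a round deviate together. Shares of cells came from cells thinned to 1000 UMIs, with exact (Clopper-Pearson) 95% intervals that cover counting error only. Other steps used scipy 1.17.1, pandas 2.3.3, numpy 2.4.6 and, for the plots, matplotlib 3.10.9, under Python 3.11.15.

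Each round was 1 pool of mice for the 3 groups, and deviations from group means of same-round libraries correlated across 11277 genes (r of 0.69, 0.72 and 0.63, over genes, which are not independent). The rounds also differed in read length. With 2 libraries against 2, an exact two-sided permutation test cannot go below p = 0.333, so no such test is given. The p-values of the group fit measure only the spread between libraries of a group, shared over the 3 groups. In the clone fits the library is a block. Their p-values therefore measure only the scatter left in the step between clone sizes, with the spread borrowed across genes. Besides the 8 genes, the text names of each pathway list the 3 genes with the smallest adjusted p in a comparison, the 3 genes most correlated with each member, and state genes from a list. The letters of the promoter motifs were chosen with the sequences in view. Some results are not reported here.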

Additional observations from a re-analysis of the deposited data

Results flagged for a closer look

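The step from singlet to expanded clones differed between spleen IGRP+ and islet IGRP- libraries for 6 genes, by the interaction term of edgeR's quasi-likelihood test over 8 sums. The log2 difference of steps was 2.14 for Gzma, 2.15 for Gzmb, 1.95 for Gzmk, 0.74 for Gzmm, 1.08 for Prf1 and 3.02 for Fasl. The singlet spleen cells held few UMIs of Gzmb (5 and 0) and Fasl (5 and 2), so these differences depend on the prior count. For Gzmm the call held in 4 of 10 alternatives, which were chosen for this contrast after the data were seen. The groups differ in tissue, in cell isolation, in tetramer binding and in the CD44 gate stated for the spleen, which cannot be told apart.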

How the results depend on the processing

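The direction of Gzmb, Gzma, Gzmm and Prf1 between islet and spleen IGRP+ cells and their calls held under the alternatives run, except Prf1 without the Round 2 spleen library. For islet IGRP+ against islet IGRP-, the count of called genes (134) became 3442 with the replicate block, 574 with DESeq2, 711 with no filter, 24 with the 4 libraries and 2 with expanded clones, and 0 to 10 without 1 library. Of the 7 genes tested, 2 were called, which became 6, 4, 2, 0 and 0 in the same order and 0 without any 1 library, where 2 to 4 had an unadjusted p under 0.05 in edgeR. Against the spleen, 3004 became 6215 with the block and 892 to 1891 without 1 library. Between clone sizes in islet IGRP- libraries, 5261 became 415 with no replicate block, 2286 with DESeq2 and 2697 to 3598 without 1 library. In the spleen, 1704 became 312, 503 and 841 to 1140 in that order. For the difference of steps, 992 became 498 with DESeq2 and 362 to 704 without 1 library.

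Signs turned for values near 0. Nkg7 against the spleen ran from -0.283 to 0.0134 without 1 islet IGRP+ library. Gzma between clone sizes in islet IGRP- was 0.0537 with the chain of most UMIs, 0.103 without the largest clones and -0.0654 to 0.0463 without 1 library. Adding or dropping the replicate block changed no other call of the 7 genes than those given beside the results. Where a call was lost the cause was not tested. A replicate left out leaves that arm with 1 library, assumed to vary like the others. Gzmm in islet IGRP+ cells (19 and 21 UMIs), Gzmc, and Gzmb and Fasl in singlet spleen cells are limited by depth.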
